A study of Mus musculus with 33 samples.

Results

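The comparison set 11 mouse mammary tumours treated with RP-6306, an inhibitor of the kinase PKMYT1, against 5 untreated mammary tumours. Members were taken by title: 11 libraries whose titles begin with MYT and 5 whose titles end in WT, together 16 of the 33 libraries sequenced. All carry the genotype label FVB, a common laboratory strain of mouse, and the growth protocol states that tumours were transplanted into mice. MYT tumours received RP-6306 at 20 mg/kg, which the protocol gives per day and the treatment field gives as bid, and the sources used here give no length of treatment. WT tumours carry the treatment label None. Used beside them are 5 further untreated tumours titled SPON and 4 vehicle tumours titled VEH, which received the carrier alone. The design text names cyclin E transgenic and PyMT tumours, but the labels do not say which group holds which, nor what drives the tumours, from which line they were passaged or whether 1 tumour gave several samples. Treatment and tumour of origin therefore cannot be told apart between MYT and WT tumours, and the spread behind each p-value is that between these libraries, which may be technical.

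PKMYT1 is a membrane-bound kinase that, together with WEE1, places inhibitory phosphates on CDK1 and so holds the cyclin B and CDK1 complex inactive until a cell is ready to divide. CDC25 phosphatases remove these phosphates, and Greatwall kinase, encoded by Mastl, protects the mitotic state by restraining a phosphatase. Cyclin E with CDK2 drives entry into DNA replication, and human cells with an amplified cyclin E1 gene are known to tolerate loss of PKMYT1 activity poorly.

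Libraries held 13701115 to 20105407 counts in MYT tumours and 15136773 to 18433182 in WT tumours. A principal component analysis of log2 CPM (the count of a gene scaled to library size, with TMM factors) placed the groups apart on the 1st component, which carried 63.6% of the variance, with MYT libraries at 30.0 to 74.4 and WT libraries at -134.9 to -93.4. WT replicate 5 lay nearest to the MYT libraries. The mean correlation across genes was 0.968 between MYT libraries, 0.953 between WT libraries and 0.84 between the groups, which describes the libraries only, since genes are not independent replicates. Epithelial genes were present in every library: Epcam, which encodes a surface adhesion protein of epithelium, stood at 968 to 1932 CPM in MYT tumours and 656 to 1144 CPM in WT tumours, and Krt8, a keratin of luminal cells, at 946 to 2672 CPM in MYT tumours and 738 to 1163 CPM in WT tumours. Of 16150 genes tested with edgeR's quasi-likelihood test, 10033 (62.1%) were called at a Benjamini-Hochberg adjusted p under 0.05, 4851 (30%) higher and 5182 (32.1%) lower in MYT tumours, and 10641 had an unadjusted p under 0.05. At least 2-fold and called were 2242 genes (13.9%) higher and 2861 (17.7%) lower. In 4785 genes (29.6%) no MYT library overlapped any WT library. With so large a share called, each list below is read against these percentages. The median log2 fold change over all genes tested was -0.01, and all fold changes below are MYT minus WT on the log2 scale unless stated.

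The genes that switch CDK1 on and off were mostly higher in MYT tumours, with 10 of 15 called higher and 0 lower, a median log2 fold change of 1.16, and 9 with every MYT library above every WT library (15.3% of all genes tested). Pkmyt1 itself (chr17:23726336-23736735 on GRCm38, plus strand) stood at 59.2 to 94.6 CPM (median 78.6) in MYT tumours, against 22, 23.5, 19.4, 18.2 and 29.0 CPM in WT tumours. The groups did not overlap, and the log2 fold change was 1.76 ± 0.13 (SE; adjusted p = 5.46e-09). The gene overlaps Paqr4 on the opposite strand, and the sources used here do not state strandedness, so reads in the overlap cannot be told apart; Paqr4, chosen after its values were seen, had 0.22 ± 0.18 (SE; adjusted p = 0.316). Wee1, which encodes the nuclear inhibitor of CDK1, had 27.5 to 44.9 CPM (median 37.8) in MYT tumours, against 32.8, 22.8, 21.4, 37.4 and 30.0 CPM in WT tumours. Its values overlapped between the groups and did not pass the test, with a log2 fold change of 0.31 ± 0.14 (SE; adjusted p = 0.071). It passed without MYT replicate 1, MYT replicate 8 or WT replicate 4, where the fold change was 0.34, 0.34 and 0.40. It also passed in limma voom with sample quality weights (0.38), with only MYT replicates 3 to 7 (0.44) and with only WT replicates 1 to 3 (0.47).

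Cdk1, which encodes the kinase of mitotic entry, stood at 107 to 308 CPM (median 174) in MYT tumours, against 72.6, 67.9, 64.0, 38.5 and 78.0 CPM in WT tumours. All MYT libraries lay above all WT libraries, a log2 fold change of 1.51 ± 0.24 (SE; adjusted p = 3.20e-05). Ccnb1, which encodes cyclin B1, its activating partner, had 79.4 to 203 CPM (median 115) in MYT tumours, against 38.1, 28.3, 24.4, 26.0 and 48.8 CPM in WT tumours. It too was higher without overlap, by 1.91 ± 0.24 (SE; adjusted p = 1.95e-06). Cdc25b, which encodes a phosphatase that activates CDK1, rose by 2.28 ± 0.26 (SE; adjusted p = 5.46e-07), with 64.8 to 166 CPM in MYT tumours and 14.8 to 39.3 CPM in WT tumours. Mastl rose by 1.92 ± 0.17 (SE; adjusted p = 2.43e-08), with 23.5 to 46.7 CPM in MYT tumours and 7.72 to 11.6 CPM in WT tumours. Aurka, a mitotic kinase that acts upstream of PLK1 and was chosen after its values were seen, was at 50.2 to 107 CPM in MYT tumours and 18.7 to 36.5 CPM in WT tumours.

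**Figure D1:**
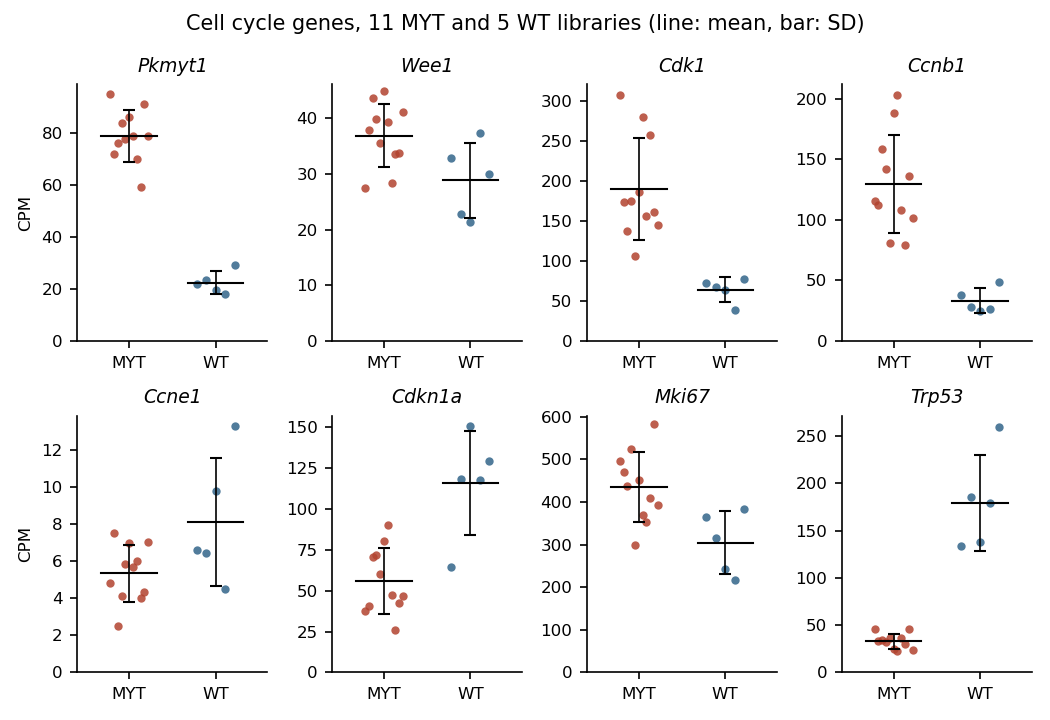
CPM (vertical axis, linear, from 0) of 8 cell cycle genes in 11 MYT (left in each panel) and 5 WT (right) libraries; each point is 1 library, the line is the mean and the bar the SD. Pkmyt1, Cdk1 and Ccnb1 lie higher in MYT libraries and Trp53 lower, without overlap, whereas Wee1, Ccne1, Cdkn1a and Mki67 overlap.

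Cyclin E and CDK2 genes did not move as a block. Of 11 tested members, 4 were called higher and 3 lower, not far from the 30% and 32.1% of all genes tested. Their median was -0.13, or 0.12 without a filter on low counts. Ccne1, which encodes cyclin E1, had 2.52 to 7.51 CPM (median 5.69) in MYT tumours, against 6.62, 6.47, 9.80, 4.49 and 13.3 CPM in WT tumours. The groups overlapped and the log2 fold change was -0.66 ± 0.26 (SE; adjusted p = 0.0328). This call was lost without WT replicate 3 (adjusted p = 0.0849), without WT replicate 5 (adjusted p = 0.189) and without a filter on low counts. It was also lost in limma voom, with or without sample quality weights, and in the fit over all 32 grouped libraries. With only MYT replicates 1, 2, 8, 9 and 10, MYT replicates 3 to 7 or WT replicates 1 to 3, it was lost too. Ccne2, the gene of cyclin E2, did not pass, at 0.32 ± 0.23 (SE; adjusted p = 0.24), and overlaps Ints8 on the other strand. Cdkn1a, the p21 gene, which encodes an inhibitor of CDK2 and a direct target of p53, had 25.9 to 90.3 CPM (median 47.2) in MYT tumours, against 64.2, 118, 151, 118 and 129 CPM in WT tumours. Most MYT libraries lay below the WT libraries, with overlap at WT replicate 1 only, and the fold change was -1.11 ± 0.24 (SE; adjusted p = 4.82e-04). Ccna2 (cyclin A2, 1.17 ± 0.17) and Cdk2 (0.46 ± 0.10) rose, and every MYT library was above every WT library for both.

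Genes of D cyclins and the Rb pathway, which control commitment to division, had 10 of 17 members higher and 1 lower, with a median of 0.72. E2f1, the transcription factor released when Rb is phosphorylated, stood at 93.0 to 141 CPM (median 117) in MYT tumours, against 16.1, 9.58, 16.2, 14.0 and 24.0 CPM in WT tumours. No library overlapped, and the log2 fold change was 2.79 ± 0.18 (SE; adjusted p = 8.67e-10). Cdk6, a kinase partner of D cyclins, rose by 1.90 ± 0.16 and E2f8, a repressor of the E2F family, by 1.26 ± 0.15. The 3 members that follow were chosen after their values were seen. Cdkn2a, whose products p16 and ARF restrain CDK4/6 and MDM2, had 53.8 to 252 CPM (median 131) in MYT tumours, against 3.20, 27.5, 12.8, 4.54 and 21.1 CPM in WT tumours. It was higher in every MYT library, by 3.18 ± 0.48 (SE; adjusted p = 1.38e-05). Rb1, the only member called lower, had 29.0 to 65.1 CPM (median 45.3) in MYT tumours, against 60.3, 137, 93.8, 197 and 83.4 CPM in WT tumours, a fold change of -1.36 ± 0.22 (SE; adjusted p = 3.46e-05). Ccnd1, the cyclin D1 gene, rose by 1.48 ± 0.30 (SE; adjusted p = 3.28e-04) with overlapping groups.

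Replication and mitosis genes were higher almost throughout. Of 37 G1/S and DNA replication genes, 34 were called higher and 0 lower, with a median of 0.98, and of 34 G2/M and mitosis genes all 34 were called higher, with a median of 1.37, against 30% higher and a median of -0.01 among all genes tested. Summed over the list, G2/M genes took 2741 to 4747 CPM in MYT tumours and 1182 to 2301 CPM in WT tumours. G1/S genes summed to 2419 to 3102 CPM in MYT tumours and 1157 to 1675 CPM in WT tumours. Untreated SPON tumours overlapped MYT tumours in both sums, at 2833 to 5069 CPM for G2/M and 2516 to 3255 CPM for G1/S genes. Cdc45, part of the replicative helicase, stood at 45.1 to 70.8 CPM (median 54.0) in MYT tumours, against 10.6, 8.18, 10.8, 8.93 and 16 CPM in WT tumours, a log2 fold change of 2.28 ± 0.16 (SE; adjusted p = 2.03e-09). Mcm3, a subunit of the same helicase, rose by 1.86 ± 0.14, and Cdt1, which loads it onto origins, by 1.47 ± 0.12. In MYT minus SPON, Cdc45 was higher (0.55 ± 0.14 (SE; adjusted p = 0.00714)), Mcm3 was not called and Cdt1 was lower (-0.45 ± 0.16 (SE; adjusted p = 0.0439)). Mybl2, which encodes the B-MYB factor that activates mitotic genes, had 27.3 to 42.1 CPM (median 36.6) in MYT tumours, against 7.0, 4.76, 8.02, 5.65 and 12.4 CPM in WT tumours. Every MYT library exceeded every WT library, at 2.15 ± 0.20 (SE; adjusted p = 6.38e-08). Smc4, a condensin subunit, rose by 1.49 ± 0.14 and Ect2, which positions the cleavage furrow, by 1.90 ± 0.20. The proliferation marker Mki67 differed less, with 298 to 584 CPM (median 438) in MYT tumours, against 366, 315, 243, 217 and 383 CPM in WT tumours. Its groups overlapped, and its fold change of 0.46 ± 0.16 (SE; adjusted p = 0.0215) was no longer called without WT replicate 3 (adjusted p = 0.068), without WT replicate 4 (adjusted p = 0.0755), with upper-quartile scaling or with only MYT replicates 3 to 7.

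The promoters of cell cycle genes were searched for a pair of motifs that mark mitotic promoters in vertebrates: the CCAAT box, bound by NF-Y, and the cell cycle genes homology region, TTTGAA. Both strands of the 250 bases before each start in the RefSeq promoter table for GRCm38.p6 were searched, and the motifs share no bases. Of 31 promoters found for 29 of the 34 G2/M genes, 23 (74.2%) held CCAAT, 11 (35.5%) held TTTGAA and 10 (32.3%) held both. Among all 32851 promoters the shares were 33.8%, 16% and 5.55%. The G1/S list had 35 promoters for 30 of its 37 genes, of which 21 (60%) held CCAAT and 4 (11.4%) TTTGAA. Among the 10 promoters found for the CDK1 switch list, 9 (90%) held CCAAT and 2 (20%) TTTGAA. A match describes letters in this window and is no evidence of binding. The lists were written to hold cell cycle genes, and their tested members were searched whatever their fold change. These shares therefore describe the lists and not the difference between the groups. The 4 stretches printed are the last 150 bases before the start, 5′ to 3′ on the strand of the gene, and are shown because these promoters hold both motifs, with each match, or its reverse complement, in capitals. Cdk1 lies at chr10:69352913-69353062 on the minus strand, Cdc20 at chr4:118437344-118437493 on the minus strand, Ube2c at chr2:164769779-164769928 on the plus strand and Kif11 at chr19:37376232-37376381 on the plus strand.
Cdk1: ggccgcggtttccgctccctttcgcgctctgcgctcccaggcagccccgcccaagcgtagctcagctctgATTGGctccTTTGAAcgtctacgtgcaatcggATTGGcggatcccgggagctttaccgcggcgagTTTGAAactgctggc
Cdc20: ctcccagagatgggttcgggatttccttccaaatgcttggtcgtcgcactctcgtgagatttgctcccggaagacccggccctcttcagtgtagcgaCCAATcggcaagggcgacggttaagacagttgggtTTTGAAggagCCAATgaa
Ube2c: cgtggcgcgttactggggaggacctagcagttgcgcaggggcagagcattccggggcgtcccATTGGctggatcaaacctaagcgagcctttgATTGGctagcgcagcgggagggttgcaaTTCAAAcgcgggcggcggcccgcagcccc
Kif11: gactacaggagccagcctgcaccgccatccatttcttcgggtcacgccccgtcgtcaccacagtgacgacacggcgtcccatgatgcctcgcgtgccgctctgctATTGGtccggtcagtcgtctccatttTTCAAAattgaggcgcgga
The last 3 of these genes were chosen for their promoters after their values were seen. Cdc20, the activator of the anaphase-promoting complex, had 80.6 to 203 CPM (median 119.8) in MYT tumours, against 62.4, 47.9, 53.5, 44.1 and 87.2 CPM in WT tumours, a log2 fold change of 1.10 ± 0.21 (SE; adjusted p = 2.12e-04) with overlap at WT replicate 5. Ube2c, the ubiquitin-conjugating enzyme of that complex, had 1.07 ± 0.24 (SE; adjusted p = 7.78e-04), and Kif11, the motor that separates spindle poles, 1.39 ± 0.18 (SE; adjusted p = 3.18e-06).

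DNA repair and replication stress genes were higher in 23 of 34 members and lower in 3, with a median of 0.76. Bard1, the partner of BRCA1, stood at 40.1 to 53.7 CPM (median 45.1) in MYT tumours, against 8.44, 7.11, 6.30, 8.33 and 15.2 CPM in WT tumours, a fold change of 2.28 ± 0.18 (SE; adjusted p = 9.31e-09). Timeless, which stabilises replication forks, rose by 1.26 ± 0.16. MYT and WT libraries did not overlap for either gene.

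Trp53, the p53 gene (chr11:69580359-69591873 on GRCm38), was among the clearest single differences. It stood at 22.5 to 45.7 CPM (median 33.2) in MYT tumours, against 133, 186, 138, 179 and 259 CPM in WT tumours. The highest MYT library held less than the lowest WT library, and the log2 fold change was -2.49 ± 0.17 (SE; adjusted p = 1.97e-09), or 5.62-fold lower. Among 25 p53 targets, 12 were called lower and 4 higher, with a median of -0.33, and 6 had every MYT library below every WT library (14.3% of all genes tested). Ccng1, which encodes cyclin G1, had 24.5 to 46.7 CPM (median 34.9) in MYT tumours, against 86.1, 152, 103, 168 and 209 CPM in WT tumours, a fold change of -2.09 ± 0.17 (SE; adjusted p = 1.20e-08). Ei24, an endoplasmic reticulum protein gene, fell (-1.16 ± 0.08 (SE; adjusted p = 2.49e-09)), as did Dcxr, which encodes a sugar reductase (-2.98 ± 0.22 (SE; adjusted p = 3.27e-09)). The proapoptotic target Bbc3, the PUMA gene, fell to 9.13 to 20.0 CPM in MYT tumours and 25.7 to 40.6 CPM in WT tumours, whereas Pmaip1, the NOXA gene, rose by 1.82 ± 0.23. Trp53 levels in the 4 VEH tumours, 20.1 to 36.5 CPM, and in SPON tumours, 2.39 to 47.2 CPM, are given beside these values as a description.

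Among the 10 largest and 10 smallest fold changes, several genes had no count in 1 group. Foxp2, which encodes a forkhead factor best known from brain and lung development, had 65.1 to 166 CPM (median 129.8) in MYT tumours, against 0.110, 0, 0.0594, 0.151 and 0.167 CPM in WT tumours, a log2 fold change of 10.09 ± 0.37 (SE; adjusted p = 6.36e-13). Foxp2 had 9 counts over the WT group, and at so few counts the SE may be too small. Alox12e, a lipoxygenase of epidermis, stood at 34.4 to 228 CPM in MYT tumours and 0 to 0.178 CPM in WT tumours (10.14 ± 0.62), and Kng1, the kininogen gene, at 13.8 to 144 CPM in MYT tumours and 0.0552 to 0.238 CPM in WT tumours (8.89 ± 0.84). The antioxidant enzyme gene Gpx2, known from gut epithelium, had 45.6 to 146 CPM (median 69.2) in MYT tumours, against 0.496, 0.761, 0.0594, 0.101 and 0 CPM in WT tumours, at 8.27 ± 0.56. Prl2c3 and Prl2c2 (prolactin family, proliferins), Pax9 and Pax3 (paired box factors) and Iapp (islet amyloid polypeptide) had no count in any WT library. Against a floor of 3 counts over the WT group, which covers counting error only, their level was at least 1210-fold, 176-fold, 295-fold, 95.9-fold and 104-fold higher in MYT tumours. Prl2c2 and Prl2c3 are close copies whose reads may be exchanged. Iapp and Pax3 depended in part on MYT replicate 11, which held 22.2 and 14.1 CPM, and had fitted fold changes of 7.31 and 7.97 without it, against 8.71 and 8.66 with it. Dlx2, a homeobox gene with 3 counts in all, at WT replicate 4, among WT tumours, had a ratio of 637 (95% counting interval 218 to 3090).

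The 10 smallest fold changes follow. Tfap2b, which encodes the AP-2 beta factor of luminal mammary cells, had 0 to 0.504 CPM (median 0.0557) in MYT tumours, against 177, 209, 156, 215 and 74.8 CPM in WT tumours, a log2 fold change of -10.91 ± 0.39 (SE; adjusted p = 6.36e-13). Clic6, a chloride channel family gene, had -10.33 ± 0.50 and Scgb2b27, a secretoglobin gene with close relatives, -12.91 ± 0.75. Lao1, which encodes the amino acid oxidase of mouse milk, and Wap, the whey acidic protein gene, had 2 counts and 1 count over all MYT libraries. Their WT to MYT ratios were 8540 (95% counting interval 2360 to 70600) and 6380 (1140 to 252000). Plekhd1 and Car8, a carbonic anhydrase-related gene, had 3 counts each over the MYT group and ratios of 2440 (833 to 11800) and 2230 (763 to 10800). Adra2c (an adrenergic receptor), Prol1 (a secreted proline-rich protein of glands) and Dcaf12l1 had no MYT count, which put them at least 1060-fold, 603-fold and 496-fold lower in MYT tumours. Fitted values moved by more than 1.5-fold without 1 library for Scgb2b27 (-14.05 without MYT replicate 2), Wap (-12.23 without MYT replicate 2), Tfap2b (-11.77 without MYT replicate 5), Plekhd1 (-12.46 without MYT replicate 9), Adra2c (-10.46 without WT replicate 1), Prol1 (-9.69 without WT replicate 2), Gpx2 (8.99 without WT replicate 2) and Dlx2 (11.48 without WT replicate 4). Lao1 had 355 CPM in WT replicate 1 against at most 35.1 CPM in the other 4 WT libraries, and a fitted value of -10.53 without it, against -12.33 with it, and of -13.65 without MYT replicate 2. None of these 20 genes changed direction under any alternative fitted. Pax9, Iapp and Gpx2 overlap Slc25a21, Slco1a5 and Fntb on the other strand.

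Luminal epithelium markers were called lower in 12 of 25 tested members and higher in 6, with a median of -0.30. Gata3, the master factor of luminal differentiation, stood at 29.1 to 55.8 CPM (median 40.4) in MYT tumours, against 284, 312, 273, 223 and 114 CPM in WT tumours. The groups did not overlap, at -2.61 ± 0.19 (SE; adjusted p = 3.26e-09). Spdef, a factor of secretory epithelium, was lower, at -6.26 ± 0.50 (SE; adjusted p = 9.31e-09). Elf5, the alveolar regulator, named after its values were seen, had 62.3 to 171 CPM (median 109) in MYT tumours, against 415, 392, 354, 366 and 261 CPM in WT tumours and a fold change of -1.77 ± 0.18 (SE; adjusted p = 1.79e-07). Against this direction ran the simple keratins and Foxa1, also chosen after their values were seen. Krt8 was higher by 0.73 ± 0.20 (SE; adjusted p = 0.00431) and Krt18 by 0.98 ± 0.27 (SE; adjusted p = 0.00361), with overlapping groups, and both calls were lost with only MYT replicates 1, 2, 8, 9 and 10. Foxa1, which opens chromatin for steroid receptors, had 10.9 to 62.9 CPM (median 23.9) in MYT tumours, against 0.165, 15.0, 1.07, 0.908 and 2.06 CPM in WT tumours, a fold change of 2.86 ± 0.70 (SE; adjusted p = 0.00167) that was 4.73 without WT replicate 2. Esr1, the oestrogen receptor gene, was lower, with 2.53 to 8.05 CPM in MYT tumours and 5.57 to 12.1 CPM in WT tumours and a fold change of -0.91 ± 0.23 (SE; adjusted p = 0.00234). Epcam was higher by 0.59 ± 0.18 (SE; adjusted p = 0.00929), but not with only MYT replicates 1, 2, 8, 9 and 10 (adjusted p = 0.246) or in the fit over all 32 grouped libraries (adjusted p = 0.312).

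Milk and alveolar genes split. Of 14 tested members 8 were lower and 3 higher, with a median of -0.82. The list summed to 2971 to 5907 CPM in MYT tumours and 7531 to 17130 CPM in WT tumours. SPON tumours summed to 607.6 to 2795 CPM, below every MYT library, so the lower sum in MYT tumours holds against WT tumours only. Csn3, the kappa casein gene, stood at 130.3 to 425 CPM (median 242) in MYT tumours, against 15162, 8016, 14649, 10568 and 5079 CPM in WT tumours. No library overlapped, and the log2 fold change was -5.49 ± 0.29 (SE; adjusted p = 6.05e-11). Lalba, the alpha-lactalbumin gene of lactose synthesis, was lower too, at -8.11 ± 0.61, or -9.12 without MYT replicate 1. The caseins Csn1s1 and Csn2 went the other way. Csn1s1 had 459 to 1254 CPM (median 854) in MYT tumours, against 13.4, 101, 98.2, 10.1 and 116 CPM in WT tumours, a fold change of 3.52 ± 0.51 (SE; adjusted p = 9.44e-06). Csn2, which encodes beta casein, was at 119.8 to 1226 CPM in MYT tumours and 1.11 to 67.0 CPM in WT tumours and had 4.94 ± 0.84 (SE; adjusted p = 5.45e-05), or 6.38 without WT replicate 3. Lalba, Csn1s1 and Csn2 were named after their values were seen. Salivary-type secretory genes were lower in 5 of 8 tested members and higher in 0, with a median of -2.93 (-1.68 without MYT replicate 8). Without a filter on low counts, salivary-type secretory genes had 11 of 15 lower and a median of -5.22. Called lower was Bhlha15, the MIST1 factor of serous cells, at 2.43 to 20.7 CPM in MYT tumours and 60.9 to 306 CPM in WT tumours and a fold change of -4.07 ± 0.40 (SE; adjusted p = 1.08e-07). Dcpp1 and Dcpp2, overlapping close copies whose reads may be exchanged, had -5.27 ± 0.87 and -5.13 ± 0.92, and Dcpp1 had -7.04 without MYT replicate 8.

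Basal and myoepithelial genes were mixed, with 8 of 23 higher and 6 lower, not far from the 30% and 32.1% of all genes tested. Krt6a, a keratin of activated and progenitor epithelium, had 9.98 to 47.2 CPM (median 20.7) in MYT tumours, against 0, 0.761, 0.654, 0.151 and 0.0557 CPM in WT tumours, a fold change of 6.09 ± 0.59 (SE; adjusted p = 9.28e-08). Lama3, which encodes a laminin chain of the basement membrane, rose by 3.68 ± 0.39, and Oxtr, the oxytocin receptor of milk ejection, fell to 0 to 0.480 CPM in MYT tumours and 7.23 to 16.9 CPM in WT tumours (-5.30 ± 0.39). Named after their values were seen, Krt5 was lower (-2.85 ± 0.43 (SE; adjusted p = 1.71e-05)) and Krt14 did not pass (0.79 ± 0.49 (SE; adjusted p = 0.168)), although Krt14 passed without WT replicate 5, at 1.61. Of 10 tested genes of squamous differentiation, 3 were higher and 4 lower, also not far from the shares among all genes tested. Dsg3, a desmosomal cadherin, rose by 4.51 ± 0.63, or 5.64 without WT replicate 1, Sfn, the 14-3-3 sigma gene, rose by 1.06 ± 0.23, and Sbsn, the suprabasin gene, fell (-1.21 ± 0.15). Epithelial junction genes had 9 of 27 higher and 12 lower, with Cldn1 (a tight junction claudin, -1.73 ± 0.21), Marveld3 (a tight junction protein, -1.29 ± 0.13) and Crb3 (a polarity protein, -1.19 ± 0.16) lower. In the fit over all 32 grouped libraries epithelial junctions had 1 higher and 4 lower.

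Genes of epithelial to mesenchymal transition were higher in 19 of 25 members and lower in 0, with a median of 1.57, and 11 of them did not overlap. Vim, the intermediate filament of mesenchymal cells, stood at 421 to 1259 CPM (median 766) in MYT tumours, against 167, 149, 216, 162 and 370.4 CPM in WT tumours. All MYT libraries were above all WT libraries, at 1.87 ± 0.30 (SE; adjusted p = 3.37e-05). Twist1, a basic helix-loop-helix factor of mesenchyme, had 35.4 to 114 CPM (median 65.2) in MYT tumours, against 4.47, 2.41, 2.26, 3.78 and 2.51 CPM in WT tumours, a fold change of 4.40 ± 0.32 (SE; adjusted p = 3.27e-09). Tgfbi, a matrix protein induced by TGF-beta, rose by 2.94 ± 0.20, Inhba, a subunit of activin, by 3.25 ± 0.34, and Snai1, a repressor of E-cadherin chosen after its values were seen, by 2.26 ± 0.24. For comparison, the 4 VEH tumours held 4292 to 5699 CPM of Vim and 8.91 to 238 CPM of Epcam, so MYT tumours lay below these 4 in the first and above them in the second; this pair of groups was not tested here. In bulk tumours, fewer cells of a type and less RNA per cell cannot be told apart, and this applies to every marker list in the text.

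**Figure D2:**
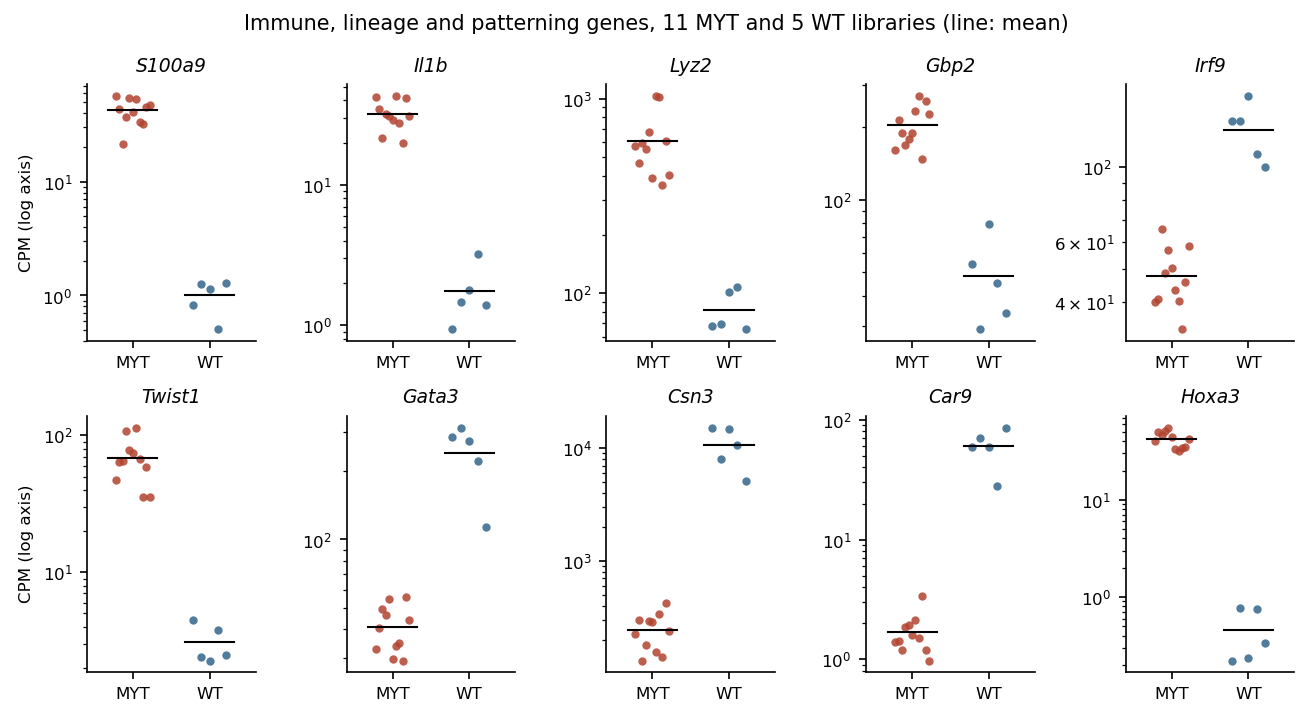
CPM (vertical axis, log scale) of 10 genes in 11 MYT (left in each panel) and 5 WT (right) libraries; each point is 1 library and the line is the mean. S100a9, Il1b, Lyz2, Gbp2, Twist1 and Hoxa3 lie higher in every MYT library, and Irf9, Gata3, Csn3 and Car9 lower.

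Neutrophil genes had the highest median of the 49 lists with at least 3 tested members. Of 21 listed neutrophil genes 16 passed the filter on low counts. Of these 13 were higher and 2 lower, with a median of 3.99, and 11 had every MYT library above every WT library. The following were chosen after their values were seen. Ly6g, Camp, Elane and Mpo stayed near 0, at no more than 1.23 CPM in any MYT or WT library. Ltf, a granule gene, had 25.1 to 466 CPM in MYT tumours and 229 to 1560 CPM in WT tumours. S100a9, which encodes a subunit of calprotectin, an abundant protein of neutrophils, stood at 21.4 to 56.5 CPM (median 43.4) in MYT tumours, against 0.827, 1.27, 1.13, 0.505 and 1.28 CPM in WT tumours, a log2 fold change of 5.35 ± 0.29 (SE; adjusted p = 1.02e-10). Csf3r, the G-CSF receptor, had 36.5 to 84.2 CPM (median 53.7) in MYT tumours, against 3.92, 5.08, 3.92, 2.42 and 3.45 CPM in WT tumours, at 3.85 ± 0.25 (SE; adjusted p = 1.23e-09). Both genes lay higher in every MYT library than in any WT library. The summed level of the list nevertheless ran the other way, at 3406 to 6118 CPM in MYT tumours and 8084 to 17610 CPM in WT tumours. Lcn2, which is also made by secretory epithelium and was chosen after its values were seen, held most of that sum, with 3051 to 5858 CPM (median 3563) in MYT tumours, against 9747, 11839, 16810.1, 8627 and 7644 CPM in WT tumours and a fold change of -1.50 ± 0.19 (SE; adjusted p = 2.75e-06).

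Macrophage and monocyte genes were higher in 19 of 24 tested members and lower in 1, with a median of 1.61 and 15 without overlap. Lyz2, the lysozyme of myeloid cells, had 361 to 1028 CPM (median 568) in MYT tumours, against 68.1, 69.7, 102, 107 and 65.4 CPM in WT tumours, at 2.83 ± 0.27 (SE; adjusted p = 7.83e-08). Msr1, a scavenger receptor, rose by 2.51 ± 0.28 and Cd300lf, an inhibitory myeloid receptor, by 2.43 ± 0.25. Spp1, the osteopontin gene, named after its values were seen, was the 1 lower member (-1.13 ± 0.35 (SE; adjusted p = 0.00934)). The list summed to 3439 to 9658 CPM in MYT tumours and 3887 to 10780 CPM in WT tumours. Spp1 was not called without WT replicate 3, at -0.80 (adjusted p = 0.0636). Its call was also lost in the fit over all 32 grouped libraries, with only MYT replicates 3 to 7 and with only WT replicates 1 to 3.

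Inflammatory cytokine and NF-kappaB genes were higher in 23 of 27 tested members and lower in 1, with a median of 2.03. Their summed level was 881.1 to 1328 CPM in MYT tumours and 317.4 to 446.9 CPM in WT tumours. Il1b, the interleukin 1 beta gene, which is also on the neutrophil list, had 20.0 to 42.8 CPM (median 31.0) in MYT tumours, against 0.938, 1.46, 1.78, 3.23 and 1.39 CPM in WT tumours. Every MYT library lay above every WT library, at 4.13 ± 0.28 (SE; adjusted p = 1.64e-09). Nfkb2, which encodes the p100 subunit of the noncanonical pathway, rose by 2.20 ± 0.15 (SE; adjusted p = 1.64e-09), with 174 to 249 CPM in MYT tumours and 26.3 to 49.8 CPM in WT tumours. Cxcl3, a neutrophil-attracting chemokine, had 3.57 to 11.7 CPM (median 5.78) in MYT tumours, against 0, 0.127, 0.0594, 0.101 and 0.0557 CPM in WT tumours, a fold change of 6.38 ± 0.48 (SE; adjusted p = 5.56e-09). Also named after their values were seen, Tnf rose by 2.03 ± 0.30, Cxcl1 by 2.53 ± 0.33 and Cxcl2 by 3.57 ± 0.52 (4.17 without WT replicate 3), whereas Cxcl12, a chemokine of stroma, was the 1 lower member, at 1.51 to 11.9 CPM in MYT tumours and 14.2 to 44.7 CPM in WT tumours (-2.53 ± 0.34 (SE; adjusted p = 4.47e-06)). Most tested neutrophil and macrophage markers were also higher in MYT than in WT tumours, and the part of these cells in this list was not tested.

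The same promoter windows were searched for the NF-kappaB motif (GGG, then any 2 bases, then TTTCC) on both strands. It was found in 9 of 23 promoters (39.1%) of 19 of the 27 inflammatory genes, against 1.41% of all promoters and 1 of 31 (3.23%) of the G2/M promoters. The list was written to hold NF-kappaB genes, and its tested members were searched whatever their fold change. Its share of the motif therefore describes the list and not the difference between the groups. CCAAT was found in 4 of the 23 (17.4%). The last 150 bases before the start are given 5′ to 3′ on the plus strand for 3 chemokine genes of 1 cluster, with matches to the motif on either strand in capitals, since all 3 hold it in this stretch. Cxcl1 lies at chr5:90891095-90891244, Cxcl2 at chr5:90903749-90903898 and Cxcl3 at chr5:90785951-90786100 on GRCm38.p6 (RefSeq).
Cxcl1: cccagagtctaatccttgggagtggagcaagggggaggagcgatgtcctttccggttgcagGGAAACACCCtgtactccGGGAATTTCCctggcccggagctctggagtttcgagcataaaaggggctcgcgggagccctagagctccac
Cxcl2: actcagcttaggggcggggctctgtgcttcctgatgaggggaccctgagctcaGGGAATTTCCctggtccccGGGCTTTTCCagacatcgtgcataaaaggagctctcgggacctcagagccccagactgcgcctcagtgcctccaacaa
Cxcl3: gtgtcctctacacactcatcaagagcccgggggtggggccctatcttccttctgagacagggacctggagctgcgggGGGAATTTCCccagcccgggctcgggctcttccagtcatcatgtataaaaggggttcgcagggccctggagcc
No binding was measured, and the matches are a description of these letters.

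Interferon-stimulated genes moved against the inflammatory genes, with 23 of 42 lower and 5 higher and a median of -0.66. Irf9, the DNA-binding subunit of the factor that answers type I interferon, stood at 33.2 to 65.8 CPM (median 45.9) in MYT tumours, against 137, 137, 162, 109 and 99.9 CPM in WT tumours. No library overlapped, and the fold change was -1.49 ± 0.14 (SE; adjusted p = 6.38e-08). Dhx58, an RNA sensor, fell to 12.7 to 35.7 CPM in MYT tumours and 45.1 to 89.5 CPM in WT tumours (-1.76 ± 0.21 (SE; adjusted p = 8.55e-07)). Irf7, which amplifies interferon production and was named after its values were seen, had 64.1 to 245 CPM (median 110.2) in MYT tumours, against 374, 945, 697, 274 and 188 CPM in WT tumours, at -2.13 ± 0.31 (SE; adjusted p = 9.73e-06), and Oas2, an antiviral enzyme named likewise, 13.7 to 107 CPM in MYT tumours and 33.8 to 450.1 CPM in WT tumours and -2.11 ± 0.48 (SE; adjusted p = 8.73e-04), or -1.31 without WT replicate 2. Both overlapped between the groups. Gbp2, a guanylate-binding protein induced by interferon gamma, rose instead, with 147 to 269 CPM (median 189) in MYT tumours, against 53.9, 29.0, 79.6, 45.1 and 33.7 CPM in WT tumours and a fold change of 2.02 ± 0.21 (SE; adjusted p = 2.33e-07). Summed over the list, levels overlapped, at 1875 to 3652 CPM in MYT tumours and 2107 to 4985 CPM in WT tumours. The untreated SPON tumours summed to 558.8 to 2145 CPM, so the lower calls describe MYT against WT tumours only. The median of the list was -1.01 with only WT replicates 1 to 3 and -0.52 without WT replicate 3.

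Genes of MHC class I presentation had 7 of 23 higher, the share among all genes tested, and 3 lower, among them H2-T23, a nonclassical class I gene, lower (-1.69 ± 0.16), Psme1, a proteasome activator, lower (-0.82 ± 0.14), and Erap1, the peptide-trimming enzyme, higher (0.60 ± 0.10). The higher count for MHC class I presentation was 11 without MYT replicate 9 or WT replicate 3 and 4 without WT replicate 1 or WT replicate 5. Of 12 tested class II and dendritic cell genes, 9 were higher and 0 lower, with a median of 1.21. Itgax, the CD11c gene, had 23.2 to 48.0 CPM (median 38.0) in MYT tumours, against 6.95, 12.2, 9.75, 12.7 and 5.29 CPM in WT tumours, at 1.94 ± 0.21 (SE; adjusted p = 3.31e-07). H2-Aa, a class II chain, overlapped between the groups at 53.9 to 312 CPM in MYT tumours and 34.3 to 133 CPM in WT tumours (1.43 ± 0.36 (SE; adjusted p = 0.002)), and Batf3, a factor of cross-presenting dendritic cells, had 2.29 ± 0.47, or 2.92 without WT replicate 3.

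Lymphocyte markers were sparse. Of 23 listed T cell genes 11 passed the filter on low counts, and 5 were higher and 0 lower. Thy1, which T cells share with stroma, was at 27.6 to 69.4 CPM in MYT tumours and 14.9 to 19.9 CPM in WT tumours (1.22 ± 0.23 (SE; adjusted p = 1.47e-04)), Cd4 at 1.03 to 9.46 CPM in MYT tumours and 0.612 to 2.17 CPM in WT tumours (1.83 ± 0.45 (SE; adjusted p = 0.00164)) and Il7r, the interleukin 7 receptor, had 1.08 ± 0.34 (SE; adjusted p = 0.0108). The count for T cells was 3 without WT replicate 1. Only 4 of 17 NK and cytotoxic cell genes passed, with Klra4, an NK receptor of a family of close copies, at a ratio of 44.3 (95% counting interval 15 to 216; WT counts were 3 in all, 2 of them in WT replicate 5, and the fitted value was 6.07 without it) and Gzmb, the granzyme B gene, lower, at -2.61 ± 0.64 (SE; adjusted p = 0.00172). Of 22 B cell and plasma cell genes 6 passed, and 4 were lower and 1 higher, namely Cd22, a B cell inhibitory receptor (2.28 ± 0.42 (SE; adjusted p = 1.20e-04)). Derl3, which secretory cells use, had -2.24 ± 0.34, and Pou2af1 had -1.90 ± 0.58. For B cells and plasma cells 2 were lower without WT replicate 4.

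**Figure D3:**
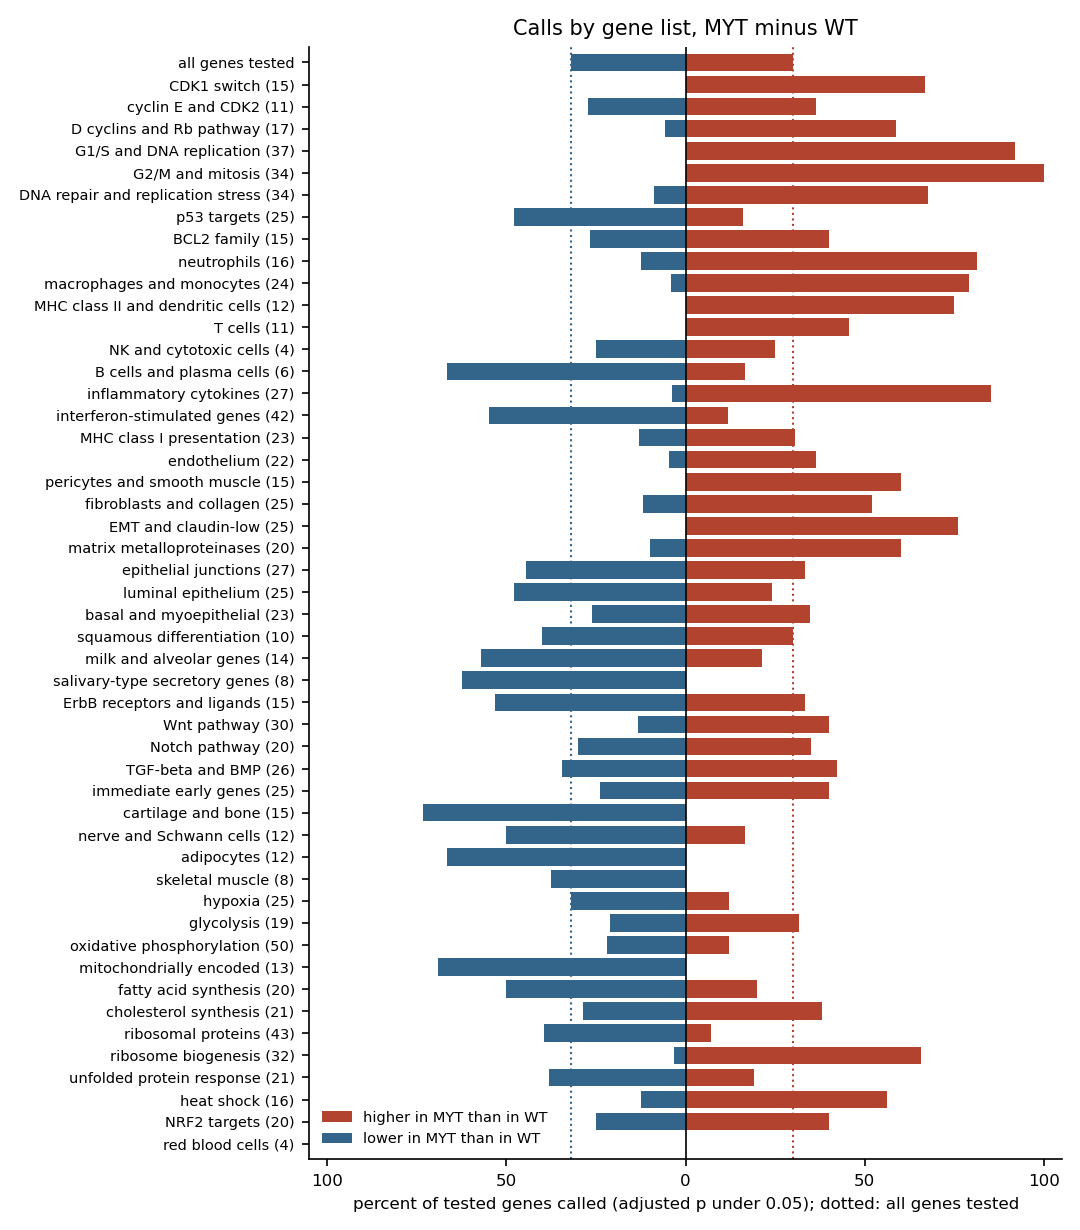
Percent of the tested genes of each of 49 lists called higher (to the right) or lower (to the left) in MYT than in WT tumours, with the number of tested genes in brackets and all genes tested at the top; the horizontal axis is percent and dotted lines mark 30% and 32.1%. The G2/M list reaches 100% higher, and the cartilage, adipocyte, skeletal muscle, mitochondrially encoded and salivary-type lists hold lower calls only.

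Vascular and stromal lists had mostly higher calls where any were made. Endothelial genes had 8 of 22 higher, close to the 30% of all genes tested, and 1 lower, with Flt1, a VEGF receptor (1.0 ± 0.20), and Plvap, a protein of fenestrated vessels (0.81 ± 0.19), higher and Prox1, the factor of lymphatic endothelium and of some epithelia, lower at 0 to 0.851 CPM in MYT tumours and 2.92 to 5.57 CPM in WT tumours (-4.11 ± 0.56 (SE; adjusted p = 5.19e-06)). Pericyte and smooth muscle genes were higher in 9 of 15 and lower in 0. Pdgfrb, the receptor that recruits pericytes, had 51.8 to 129.9 CPM (median 66.7) in MYT tumours, against 23.6, 18, 23.1, 21.3 and 21.8 CPM in WT tumours, a fold change of 1.73 ± 0.20 (SE; adjusted p = 7.67e-07). Cspg4 and Abcc9, further pericyte genes, had 1.83 ± 0.20 and 0.97 ± 0.16. Fibroblast and collagen genes were higher in 13 of 25 and lower in 3. Col15a1, a basement membrane collagen, stood at 54.0 to 123 CPM in MYT tumours and 20.3 to 29.9 CPM in WT tumours (1.80 ± 0.15 (SE; adjusted p = 1.96e-08)), with Thbs2 (1.68 ± 0.34) and Col5a2 (1.44 ± 0.31) also higher and overlapping. With only MYT replicates 3 to 7 the count for fibroblasts and collagen was 8 higher and 5 lower.

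Cartilage and bone matrix genes fell together, with 11 of 15 tested members lower and 0 higher, a median of -1.53 and a summed level of 337.6 to 634.1 CPM in MYT tumours, against 1307 to 1751 CPM in WT tumours. Col9a1, a chain of the collagen that decorates cartilage fibrils, had 51.4 to 154 CPM (median 117) in MYT tumours, against 576, 524, 468, 346 and 409.6 CPM in WT tumours, a fold change of -2.21 ± 0.23 (SE; adjusted p = 1.97e-07). Col9a2, another chain, had -3.06 ± 0.21 (SE; adjusted p = 2.08e-09) and Chad, the chondroadherin gene, -4.51 ± 0.47 (SE; adjusted p = 1.96e-07). Adipocyte genes were lower in 8 of 12 tested and higher in 0, with a median of -0.80, and without a filter on low counts adipocytes had 15 of 20 lower and a median of -2.48. Called lower were Plin4, which coats lipid droplets (-3.49 ± 0.43), Acsl1, which activates fatty acids (-0.98 ± 0.19), and Car3, a carbonic anhydrase of fat and muscle, which varied from 0.151 to 20.4 CPM among WT libraries. Of 8 tested skeletal muscle genes 3 were lower, namely Mb, the myoglobin gene (-2.92 ± 0.45), Ryr1, the calcium release channel (-2.47 ± 0.54), and Mylpf, a myosin light chain (-1.68 ± 0.40, or -0.77 without WT replicate 2, whose 5.84 CPM stood above the other 4). The median for skeletal muscle was 0.12 without WT replicate 2, against -0.47 with it, and without a filter on low counts 11 of 20 were lower, with a median of -1.93. Nerve and Schwann cell genes were lower in 6 of 12 and higher in 2: Cdh19 (-4.82 ± 0.55) and L1cam (-2.83 ± 0.36), adhesion genes of the lineage, were lower and Pmp22, a myelin protein gene also active elsewhere, was higher (2.03 ± 0.27). The 4 tested red blood cell genes had a median of 0.39, and their list summed to 29.65 to 380.2 CPM in MYT tumours and 34.01 to 139.1 CPM in WT tumours.

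Among growth factor pathways, Wnt genes were higher in 12 of 30 tested and lower in 4, against 30% and 32.1% of all genes tested. Wnt7b, a ligand, had 151 to 497 CPM (median 239) in MYT tumours, against 9.54, 12.4, 19.5, 19.5 and 26.1 CPM in WT tumours. The lowest MYT library exceeded the highest WT library, at 3.86 ± 0.31 (SE; adjusted p = 1.19e-08). Fzd7, a receptor, rose by 1.61 ± 0.14 (SE; adjusted p = 2.83e-08), and Sp5, a direct target of beta-catenin, by 6.82 ± 0.63, or 8.64 without WT replicate 5. Notch genes had 7 of 20 higher and 6 lower, near the shares among all genes tested. The ligand gene Jag1 had 44.1 to 139.7 CPM (median 93.0) in MYT tumours, against 11.1, 13.5, 10.9, 20.1 and 14.4 CPM in WT tumours, at 2.73 ± 0.22 (SE; adjusted p = 1.01e-08), and Lfng, a glycosyltransferase that modifies Notch, rose by 2.83 ± 0.24. Hey1, a target of Notch and BMP signals, fell to 8.68 to 36.8 CPM in MYT tumours and 86.6 to 366 CPM in WT tumours (-3.49 ± 0.30 (SE; adjusted p = 2.29e-08)).

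ErbB receptor and ligand genes had 8 of 15 lower and 5 higher, against 32.1% lower and 30% higher among all genes tested. Egfr was lower, with 24.2 to 50.7 CPM in MYT tumours and 50.9 to 144 CPM in WT tumours (-1.22 ± 0.19 (SE; adjusted p = 1.85e-05)), and the ligand gene Egf had -4.70 ± 0.53, or -3.75 without WT replicate 1. Erbb4, the receptor of lactogenic differentiation, had 1 count over all MYT libraries and 8.94, 5.52, 4.69, 7.47 and 0.891 CPM in WT tumours, a WT to MYT ratio of 1020 (95% counting interval 182 to 40300), with a fitted value of -9.58 without MYT replicate 3, against -8.78 with it. TGF-beta and BMP genes had 11 of 26 higher and 9 lower. Id2, a target of BMP signals and inhibitor of differentiation factors, had 42.4 to 93.3 CPM (median 56.2) in MYT tumours, against 808, 376, 369.7, 377 and 255 CPM in WT tumours, at -2.89 ± 0.22 (SE; adjusted p = 5.54e-09). Bmpr1a, a BMP receptor, and Tgfb3, a ligand, were lower, at -1.02 ± 0.09 and -1.92 ± 0.19. Matrix metalloproteinase genes were higher in 12 of 20 and lower in 2, with a median of 1.49. Mmp9, a gelatinase that is also on the neutrophil list, stood at 10.9 to 42.8 CPM (median 18.7) in MYT tumours, against 0.165, 0.127, 0.713, 1.06 and 1.34 CPM in WT tumours, a fold change of 4.90 ± 0.49 (SE; adjusted p = 1.35e-07). Mmp12, the macrophage elastase, rose by 3.25 ± 0.39 and Adamts4, an aggrecanase, by 4.59 ± 0.57, or 5.89 without WT replicate 5. Immediate early genes had 10 of 25 higher and 6 lower, with the factors Klf4 (3.01 ± 0.23) and Fosl1 (3.6 ± 0.36) and the cytokine brake Socs3 (2.73 ± 0.32) all above WT in every MYT library.

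**Figure D4:**
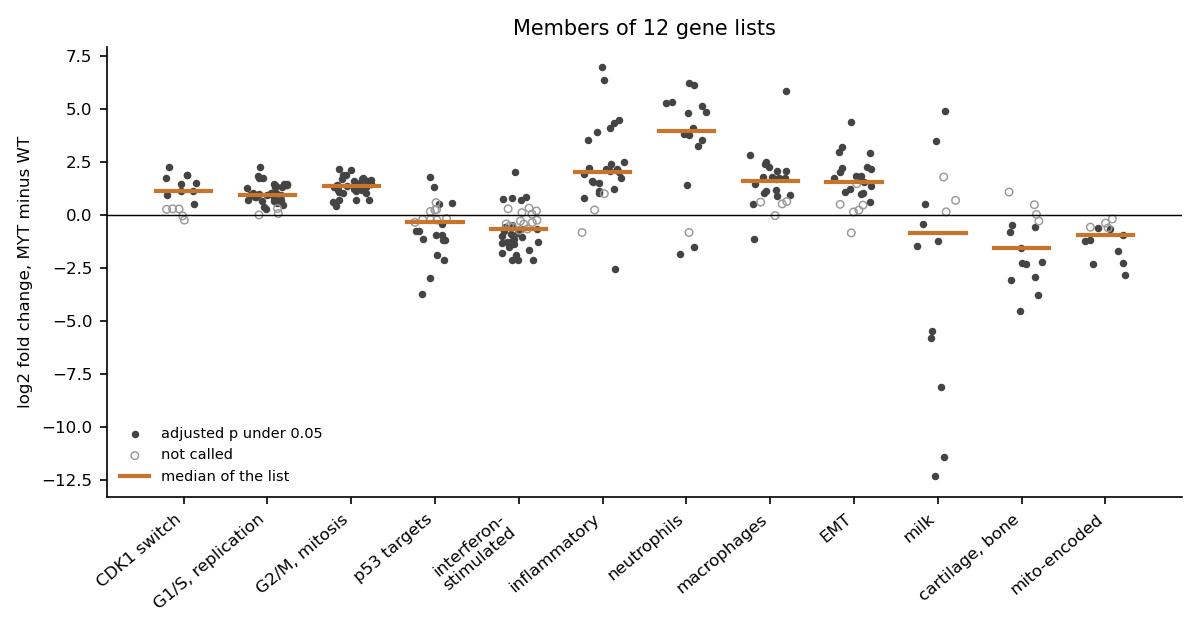
Log2 fold change, MYT minus WT (vertical axis), of each tested member of 12 lists; filled points have an adjusted p under 0.05, open points do not, and the orange line is the median of the list. G2/M members all lie above 0 with a median of 1.37, neutrophil members reach a median of 3.99, and cartilage and bone members have a median of -1.53.

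Hypoxia, glycolysis and nuclear respiratory genes had calls in both directions, whereas mitochondrially encoded genes had lower calls only. Among all genes tested 30% were called higher and 32.1% lower. The hypoxia, glycolysis and nuclear respiratory lists stood near or below both shares. Hypoxia genes had 3 of 25 higher and 8 lower, with a median of -0.01. The carbonic anhydrase Car9, a classic target of HIF, stood at 0.972 to 3.35 CPM (median 1.51) in MYT tumours, against 59.2, 70.3, 58.9, 27.9 and 86.0 CPM in WT tumours. Every MYT library lay below every WT library, at -5.22 ± 0.25 (SE; adjusted p = 2.55e-11). Car12, a related surface enzyme, had -4.70 ± 0.35 (SE; adjusted p = 4.81e-09), and Egln3, an oxygen-sensing hydroxylase, -1.97 ± 0.35, or -1.24 without WT replicate 1, which held 1325 CPM against at most 454 CPM in the other 4. For hypoxia, 5 were lower without WT replicate 3 or WT replicate 5 and 6 were higher without WT replicate 5. Glycolysis genes had 6 of 19 higher and 4 lower, with the glucose transporter Slc2a3 (2.03 ± 0.32) and the lactate transporter Slc16a1 (1.65 ± 0.31) higher and the enzyme Pfkm lower (-0.78 ± 0.14). For glycolysis, 2 were lower without WT replicate 3. Of 50 nuclear genes of oxidative phosphorylation 11 were lower and 6 higher, with Uqcrc1 (-0.75 ± 0.09), Ndufv2 (-0.69 ± 0.12) and Sdhd (-0.75 ± 0.14), subunits of the respiratory chain, all lower. For oxidative phosphorylation, 10 were higher without WT replicate 2. Mitochondrially encoded genes were lower in 9 of 13 and higher in 0, with a median of -0.92. Their summed level was 21360 to 41100 CPM in MYT tumours and 23300 to 73090 CPM in WT tumours, with WT replicate 2 far above the other 4. Of this list mt-Atp6, a subunit of ATP synthase, had -1.68 ± 0.25 (SE; adjusted p = 1.38e-05), mt-Nd3, a subunit of complex I, -2.31 ± 0.41, and mt-Atp8, which overlaps mt-Atp6, -2.80 ± 0.33. The median for mitochondrially encoded genes was -0.51 without WT replicate 2.

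Ribosomal proteins had 17 of 43 lower, not far above the 32.1% of all genes tested, and 3 higher, with a median of -0.27. For ribosomal proteins the median was -0.11, with 15 lower, without WT replicate 2, and 1 was higher without any 1 of MYT replicates 1 and 9 or WT replicates 3, 4 and 5. Rpl19 (-1.69 ± 0.15), Rpl23 (-1.69 ± 0.18) and Rpl4 (-0.96 ± 0.13), which encode proteins of the large subunit, did not overlap between the groups. Ribosome biogenesis genes were higher in 21 of 32 and lower in 1, with a median of 0.51. Gar1, a small nucleolar ribonucleoprotein, stood at 44.9 to 99.1 CPM in MYT tumours and 13.5 to 38.8 CPM in WT tumours (1.55 ± 0.22 (SE; adjusted p = 7.28e-06)), and Utp14a and Ddx18, further nucleolar factors, rose by 0.82 ± 0.13 and 1.35 ± 0.22.

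Lipid synthesis genes showed opposite directions at their regulators. Fatty acid synthesis genes had 10 of 20 lower and 4 higher. The list summed to 1994 to 3585 CPM in MYT tumours, 3214 to 5084 CPM in WT tumours and 1620 to 2115 CPM in SPON tumours. Srebf1, the regulator of lipogenesis, had 181 to 365 CPM (median 247) in MYT tumours, against 1188, 1327, 1247, 2133 and 664 CPM in WT tumours, at -2.39 ± 0.20 (SE; adjusted p = 1.45e-08). Mlxipl, the carbohydrate-responsive factor ChREBP, fell (-3.11 ± 0.28 (SE; adjusted p = 3.30e-08)), as did the elongase Elovl5 (-0.83 ± 0.08). For fatty acid synthesis, 2 were higher without any 1 of MYT replicates 3, 4 and 11 or WT replicates 1, 2 and 5. Cholesterol synthesis genes had 8 of 21 higher and 6 lower, not far from the 30% and 32.1% of all genes tested. Their regulator Srebf2 was higher, with 232 to 430.3 CPM in MYT tumours and 149.6 to 197 CPM in WT tumours (0.89 ± 0.16 (SE; adjusted p = 8.09e-05)), and the sterol reductase Tm7sf2 was lower (-1.44 ± 0.19).

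Stress and survival genes were likewise mixed, and their counts stand against 30% higher and 32.1% lower among all genes tested. Unfolded protein response genes had 8 of 21 lower and 4 higher, with Xbp1, its transcription factor and a secretory regulator (-1.37 ± 0.17), Herpud1, a degradation factor (-1.41 ± 0.16), and Dnajb9, a chaperone of the endoplasmic reticulum (-1.15 ± 0.15), lower. Heat shock genes had 9 of 16 higher and 2 lower. Hsp90ab1, a constitutive HSP90, was at 3037 to 4195 CPM in MYT tumours and 1608 to 2427 CPM in WT tumours (0.87 ± 0.13 (SE; adjusted p = 1.77e-05)), Hspd1, the mitochondrial chaperonin, rose by 1.26 ± 0.18, and Serpinh1, the collagen chaperone, fell (-1.65 ± 0.25). NRF2 targets had 8 of 20 higher and 5 lower, with Gstp1, a glutathione transferase, higher (1.34 ± 0.14) and Tkt, an enzyme of the pentose phosphate pathway, lower (-1.49 ± 0.10). BCL2 family genes had 6 of 15 higher and 4 lower, and Mcl1, an antiapoptotic member, stood at 373 to 468 CPM in MYT tumours and 225 to 273 CPM in WT tumours (0.77 ± 0.09 (SE; adjusted p = 1.04e-06)).

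By chromosome, a description added after the data were seen, the groups differed in the median over genes with a mean log2 CPM of at least 3 (11024 genes, median log2 fold change 0.07). Of these 11024 genes 34.7% were called higher and 29.8% lower. The 603 such genes of chromosome 9 had a median of -0.57, with 385 (63.8%) lower and 76 (12.6%) higher. The 353 of chromosome 14 had -0.49, with 223 (63.2%) lower and 36 (10.2%) higher. Chromosomes 15 (0.47), 3 (0.45), 13 (0.40) and 1 (0.40) had the highest medians. Taken library by library against the WT mean, chromosome 9 lay at -0.594 to -0.535 in MYT libraries and at -0.0246 to 0.0407 in WT libraries. Chromosome 14 lay at -0.542 to -0.409 in MYT libraries and at -0.0402 to 0.0394 in WT libraries. MYT libraries varied more on chromosome 15, from 0.278 to 0.824, with the highest value at MYT replicate 9, which was also highest on chromosome 19, at 0.743. On chromosome 12 MYT libraries ranged from -0.613 to -0.123 and WT replicate 1 stood at 0.352.

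**Figure D5:**
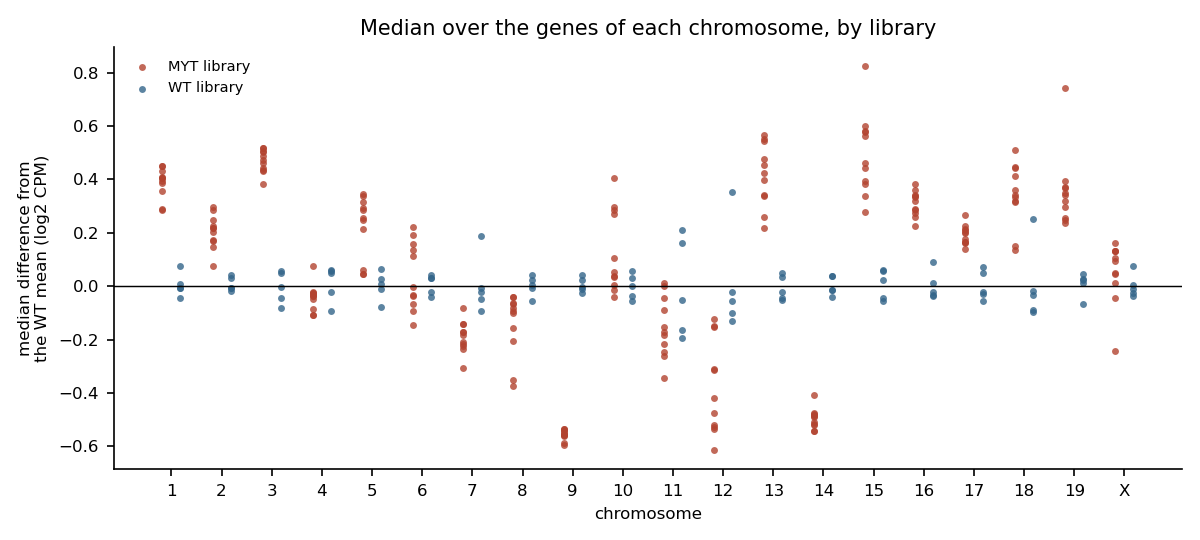
Median over the genes of each chromosome of the difference in log2 CPM from the WT mean (vertical axis), for each of 11 MYT libraries (left of each position) and 5 WT libraries (right). On chromosomes 9 and 14 all MYT libraries lie below all WT libraries, and on chromosomes 1, 3, 13 and 15 above them.

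Among the MYT libraries, the 2nd principal component (6.27% of the variance) separated MYT replicates 1, 2, 8, 9 and 10, at 2.02 to 41.4, from MYT replicates 3 to 7, at -48.0 to -10.2. MYT replicate 11, whose title number is in neither range, lay at 2.41, within the span of the first set. The 2 sets carry title numbers in separate ranges, and the labels do not say what these numbers are. With only the first set the comparison with WT called 8383 genes, and with only the second 8782. The median within-group SD of log2 CPM was 0.294 over MYT libraries and 0.345 over WT libraries.

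Set against the other untreated tumours, MYT minus SPON called 4480 of 15695 genes tested (28.5%), 1484 (9.46%) higher and 2996 (19.1%) lower. The split depended on the fit, with 2115 higher and 2208 lower in limma voom and 2590 higher and 3407 lower without SPON replicate 4. This comparison shares the MYT libraries with MYT minus WT, so the values of each are only placed side by side. Among the 12 cell cycle and lineage genes chosen for both, Pkmyt1 was called, at 0.69 ± 0.13 (adjusted p = 0.00106), with 35.4 to 59.4 CPM in SPON tumours. Cdk1 (0.07 ± 0.23), Ccnb1 (0.37 ± 0.21), Mki67 (-0.43 ± 0.19), Cdkn1a (0.69 ± 0.29), Trp53 (0.36 ± 0.47), Vim (0.26 ± 0.38) and Epcam (-0.05 ± 0.19) were not, with adjusted p from 0.0795 for Cdkn1a to 0.862 for Epcam. The myeloid genes S100a9 (2.29 ± 0.55), Csf3r (2.89 ± 0.28) and Il1b (2.84 ± 0.35) were higher in MYT than in SPON tumours as well (adjusted p = 0.005, 5.89e-06 and 4.36e-05). Whether MYT minus WT and MYT minus SPON differ for a gene was not tested.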

How the data were processed

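Whole-number counts per gene were deposited by the authors as 1 table of 33 libraries. Per the submitters' processing notes, the tools and build named are STAR 2.7.10a, HTSeq, edgeR and GRCm38; the kit, strandedness and annotation release are not stated there. Rows without a gene symbol held 0.0482% of counts and were kept under their gene IDs in library sizes and tests. Groups came from titles, and 1 library with conflicting labels was left unassigned. From the counts, MYT and WT libraries were fitted with edgeR 4.0.16 (R 4.3.3; filterByExpr, TMM, quasi-likelihood test, Benjamini-Hochberg adjustment), and CPM used TMM factors over the 32 grouped libraries. Each SE given was worked back from the test, as the absolute log2 fold change over the square root of its F statistic. It was not estimated separately and may be too small for genes near 0 counts in 1 group. Log2 CPM for principal components and correlations used a prior count of 2. The code was tested on simulated data. No 2 libraries of a group agreed within sampling noise, with a smallest chi-square per degree of freedom of 16.12.

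Positions came from GENCODE M21. Annotated coding genes overlap Cdc25b, Ccna2, Cdk2, Cdc45, Cdt1, Rb1, Ccnd1, Cdc20, Ube2c, Irf7, Irf9, Psme1, Erap1, Cd300lf, Nfkb2, Gata3, Crb3, Plvap, Plin4, Mb, Chad, L1cam, Pfkm, Srebf1, Tm7sf2, Hspd1, Fosl1, Tgfb3, Mmp12, Adamts4 and Mpdu1, so their reads may be shared. Of 51 gene lists, 49 had at least 3 tested members; of the others, mast cells and eosinophils had 1 higher and 1 lower of 2 tested, and sex chromosome genes 1 lower of 1. The members and lists were chosen with earlier results of these data known. Named by rule were 12 cell cycle and lineage genes, the 10 largest and 10 smallest changes at a mean log2 CPM of at least 1, and up to 3 called members per list by smallest adjusted p; some genes are not reported here, and other genes are marked as chosen after their values were seen. Alternatives used DESeq2 1.42.0, limma 3.58.1 (voom), other scalings, no filter, all 32 grouped libraries, title ranges and each library left out. Intervals and floors (95%, 3 counts) cover counting error only.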

Additional observations from a re-analysis of the deposited data

Results flagged for a closer look

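Of 277 values examined for a WT library standing apart from the other 4 (Dixon's test, critical value 0.71), 30 were picked out. Chance picks out about 1 in 20 groups where values follow a normal distribution. Gene and list values were CPM without a log scale, so that rate may not hold here. MYT libraries, a group of more than 10, were not examined in this way. WT replicate 5 accounted for 10 of them. It was high for Cdc25b (39.3 CPM), Kif11 (60.1 CPM), Bard1 (15.2 CPM), Krt14 (271 CPM), Sp5 (0.278 CPM), Lfng (9.24 CPM), Adamts4 (19.2 CPM), Hspd1 (282 CPM) and the summed heat shock list (5169 CPM), and low for Sbsn (14.9 CPM).

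WT replicate 1 was high for Cdk6 (29.3 CPM), Id2 (808 CPM), Egln3 (1325 CPM) and Lao1 (355 CPM), and in its median difference from the WT mean on chromosome 12 (0.35) and chromosome 18 (0.25). WT replicate 2 was high for Foxa1 (15.0 CPM), Mylpf (5.84 CPM), mt-Atp6 (72.6 CPM), the summed skeletal muscle list (84.6 CPM) and the summed mitochondrially encoded list (73090 CPM). WT replicate 3 was high for Csn2 (67.0 CPM), Sfn (99.7 CPM), Msr1 (11.1 CPM) and Batf3 (2.20 CPM). WT replicate 4 was high for Oxtr (16.9 CPM), Thbs2 (79.5 CPM), Tgfb3 (466 CPM), Zbtb4 (167 CPM) and Dlx2 (0.151 CPM).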

How the results depend on the processing

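MYT minus WT called 8383 to 12158 genes over all alternatives at the same threshold, against 10033, and 9525 to 10143 with 1 library left out; a further limit of 2-fold left 5103. DESeq2 called 11701. MYT minus SPON called 3533 to 5997 genes with 1 library left out, against 4480, and 2299 at 2-fold or more and 2137 in limma voom with sample quality weights. The cause of that drop was not tested. For named genes in MYT minus WT, 5334 refits kept direction and side of the threshold, 28 lost the call, 12 gained it, and 1 reversed, Paqr4 at -0.067 with only MYT replicates 1, 2, 8, 9 and 10. In MYT minus SPON, uncalled values reversed for Cdk1 (-0.071) and Esr1 (0.020) in limma voom with sample quality weights, and, over fits that left out 1 library each, for Ccne2 (-0.28 to 0.077), Epcam (-0.099 to 0.070) and Gpx2 (-0.20 to 0.70). Counts called higher on the G1/S, G2/M, neutrophil and inflammatory lists stayed within 1.5 times over these alternatives. No paired analysis was possible because replicate numbers follow accession order and pair no samples. Genes near 0 counts in 1 group are limited by depth.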

Other observations

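Homeobox genes of the Hoxa cluster, which pattern the body axis, were looked at after their values had been seen. Of 11 listed Hoxa genes 9 were tested, and 7 were higher and 0 lower in MYT tumours. Hoxa3 stood at 31.6 to 55.2 CPM (median 42.2) in MYT tumours, against 0.221, 0.761, 0.238, 0.757 and 0.334 CPM in WT tumours, a log2 fold change of 6.44 ± 0.29 (SE; adjusted p = 1.08e-11). Hoxa2 had 7.09 ± 0.37 and Hoxa5 5.74 ± 0.36, and Hoxa6, with no count in any WT library, was at least 41.5-fold higher against a floor of 3 counts over the group. Hoxa9 (0.98 ± 0.62) and Hoxa10 (1.36 ± 0.72) did not pass, although Hoxa10 passed without WT replicate 1, at 2.37. Annotated transcripts of Hoxa3 overlap Hoxa4, Hoxa5 and Hoxa6 on the same strand, so reads may be shared between them. Of 7 tested Hoxb genes 3 were higher and 4 lower, and of 5 Hoxc genes 4 were higher and 0 lower.

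Within 300 kb on each side of Trp53, itself left out, 34 genes were tested, of which 20 (58.8%) were lower and 6 higher in MYT tumours. Among all genes tested, 32.1% were lower. Among the 925 genes of chromosome 11 with a mean log2 CPM of at least 3, 39.1% were lower. The window had no such limit on CPM, so its share and that of chromosome 11 are not like for like. Chosen after their values were seen, Zbtb4, a zinc finger repressor, had 12.6 to 36.0 CPM (median 24.8) in MYT tumours, against 107, 102, 95.6, 167 and 91.9 CPM in WT tumours, at -2.20 ± 0.19 (SE; adjusted p = 2.40e-08), and Chrnb1, a muscle receptor subunit, -2.68 ± 0.28. Sat2 had -3.58 ± 0.28, Mpdu1 -1.13 ± 0.17 and Wrap53, which starts beside Trp53, -0.67 ± 0.15, a call lost in the fit over all 32 grouped libraries.

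Presence and absence were sharp for a few genes. Pax9, Prl2c3 and Prl2c2 had at least 10 counts in every MYT library and 0 in all WT libraries, and 8 genes showed the reverse, among them Adra2c, Prol1 and Dcaf12l1.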
